A study of Mus musculus with 18 samples.

Results

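Crypt cells of the mouse small intestine that carried the brightest signal of a fluorescent Flattop reporter were compared with crypt cells that carried none. The comparison rests on 4 of the 18 samples of the series, the 2 arrays whose titles name the reporter-high gate and the 2 whose titles name the reporter-negative gate. All 4 came from 4-month-old C57Bl6/J mice of genotype FltpZV/+, that is, with 1 reporter allele of Flattop (gene symbol Cfap126), a planar cell polarity gene. Crypts were isolated, made into single cells and sorted by GFP level, and each array holds RNA pooled from 2 animals. The negative cells therefore carry the reporter allele too, and the labels give neither the brightness at which the gates were set nor whether gates of the same replicate number came from the same animals. By its title the study concerns stem cells primed by Wnt and planar cell polarity signalling and their path to enteroendocrine or Paneth cells. The 2 arrays of a reporter-low gate entered the same fit, and the 12 samples of a lineage-tracing line were not analysed here.

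Paneth cells sit at the crypt base, fill large granules with antimicrobial proteins and secrete them into the lumen. They descend, like goblet, tuft and enteroendocrine cells, from Lgr5-positive stem cells through a secretory precursor that needs the transcription factor Atoh1, while absorptive enterocytes arise from rapidly dividing precursors higher in the crypt. Cells that make much secretory protein rely on the unfolded protein response, in which the sensor Ire1 and its target factor Xbp1 raise the folding capacity of the endoplasmic reticulum.

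Expression was measured on 1-colour Affymetrix arrays as RMA values, which are log2 signals, and every level and difference below is on that log2 scale unless called a fold. A difference is the mean of the 2 reporter-high arrays minus the mean of the 2 negative arrays, with limma's standard error (SE). A gene was called, and is said to have risen or fallen, where its p-value adjusted over all 19938 genes was under 0.05. Signal below 4.23, the background level set by receptor genes of the nose, was taken as dim, and a gene with no array of the dimmer gate above that level is given as a change of at least the size measured against it. Every p-value rests on how far the 2 arrays within each of the 3 gates lay apart, which may be technical spread. limma moves each gene's estimate of that spread towards a value estimated over all genes. In sorted cells in bulk, fewer cells of a type and less RNA per cell cannot be told apart.

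The high arrays differed from the negative arrays over their whole range of brightness. Their values were less spread across genes, with an SD of 1.71 and 1.59 against 1.85 and 1.83, and the high pair was less alike (Pearson correlation across genes 0.946) than the negative pair (0.981). Between the 2 high arrays 7.18% of genes differed by more than 1, against 1.74% between the negative arrays. The largest gaps were in Pcnp, at 8.47 on high replicate 1 and 4.09 on high replicate 2, and in the gastric gene Gkn2, at 8.79 and 3.80 on the negative arrays. The brightest 4985 genes by mean over the 4 arrays had a median difference of -0.34 and the dimmest 4985 one of 0.19, and quantile normalization brought these to -0.04 and 0.01. The part of this compression in the results was not tested, so a list's counts under quantile normalization and the other fits are given where they moved by more than 1.5 times and by more than 1 gene. Eif2s3y, a Y-linked gene, stood at 5.97 and 3.77 on the negative and at 5.95 and 3.54 on the high arrays (replicate 1, then replicate 2), and the labels give no sex. The replicates of both gates differed alike in it, and it was not called between gates (limma, adjusted p = 0.962). The median level of 4 measured sex-linked genes, Xist among them, was higher on replicate 1 in low cells too, at 6.09 and 3.83.

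**Figure D1:**
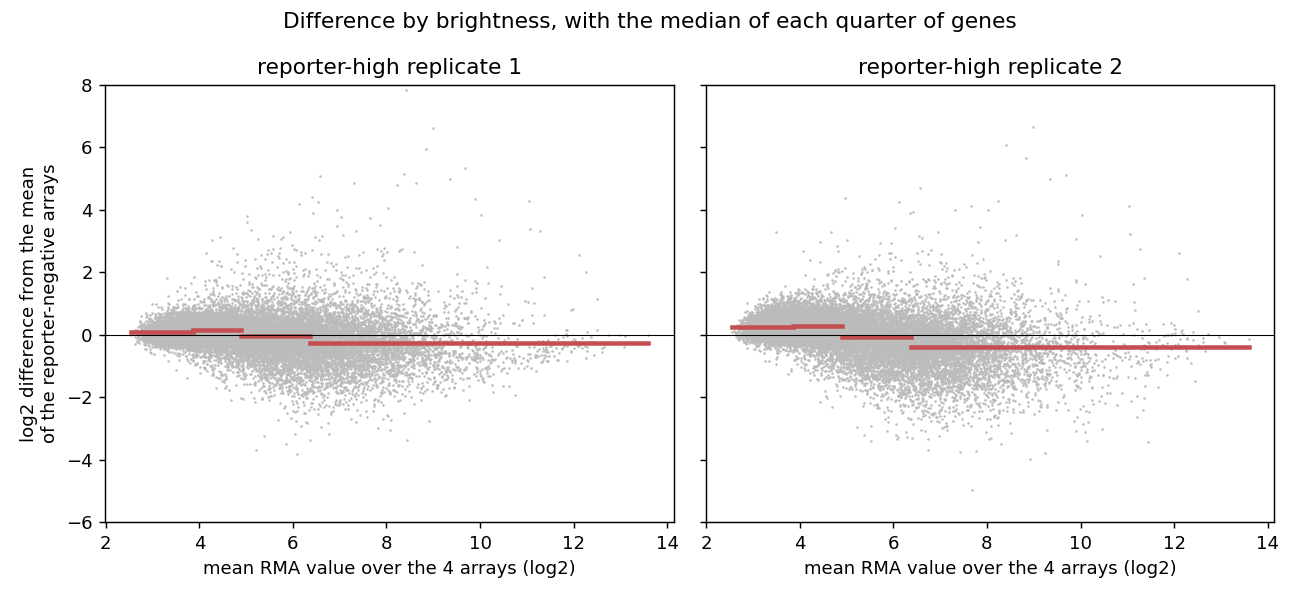
Log2 difference of each reporter-high array from the mean of the 2 reporter-negative arrays (vertical axis) against the mean RMA value over the 4 arrays (horizontal axis, log2), 1 point per gene; red lines give the medians of 4 groups of genes of about equal size, ordered by brightness. The medians run from 0.10 to -0.26 on replicate 1 and from 0.26 to -0.40 on replicate 2, so bright genes read lower on both high arrays.

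In all, 939 genes passed the test, 4.71% of the 19938 tested. Of these, 272 (1.36% of genes) rose and 667 (3.35%) fell in reporter-high cells, with a median difference over all genes of 0.10. With quantile normalization 621 genes (3.11%) were called, of which 324 rose (1.63%) and 297 fell (1.49%), so there the calls were split about evenly. The 4 arrays did not overlap between gates for any of the 939 genes, and the same held for 55.2% of all genes tested. The number of calls fell most when a negative array was left out. Leaving out 1 array also takes its gate's pair out of the shared estimate of spread. The negative pair lay closest together and the high pair farthest apart. The part of this in the counts was not tested. Without negative replicate 1 only 15 genes (0.0752%) were called, 0.0652% as higher and 0.01% as lower. Without negative replicate 2 it was 13 genes (0.0652%), 0.0602% higher and 0.00502% lower. The low arrays take part only through the shared estimate of spread, and leaving out either gave 561 calls (2.81%), 0.923% higher and 1.89% lower. Without high replicate 1 there were 1919 (9.62%), 3.01% higher and 6.61% lower, and without high replicate 2 there were 715 (3.59%), 1.37% higher and 2.22% lower. None of 46 gene lists held more than 1 call without a negative array, other than the wider Paneth products with 6 and 5. Between the high and low gates 4.91% of genes were called. Of the 939 calls, 321 (136 rises and 185 falls) held at the threshold of 0.05 in all alternative fits other than those without a negative array. In every fit 13 genes were called: Acvr1c, Ang4, Bambi, Bhlha15, Clps, Habp2, Jchain, Nucb2, Nupr1, Pnliprp2, Rnase1, Samd5 and Tmed6.

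**Figure D2:**
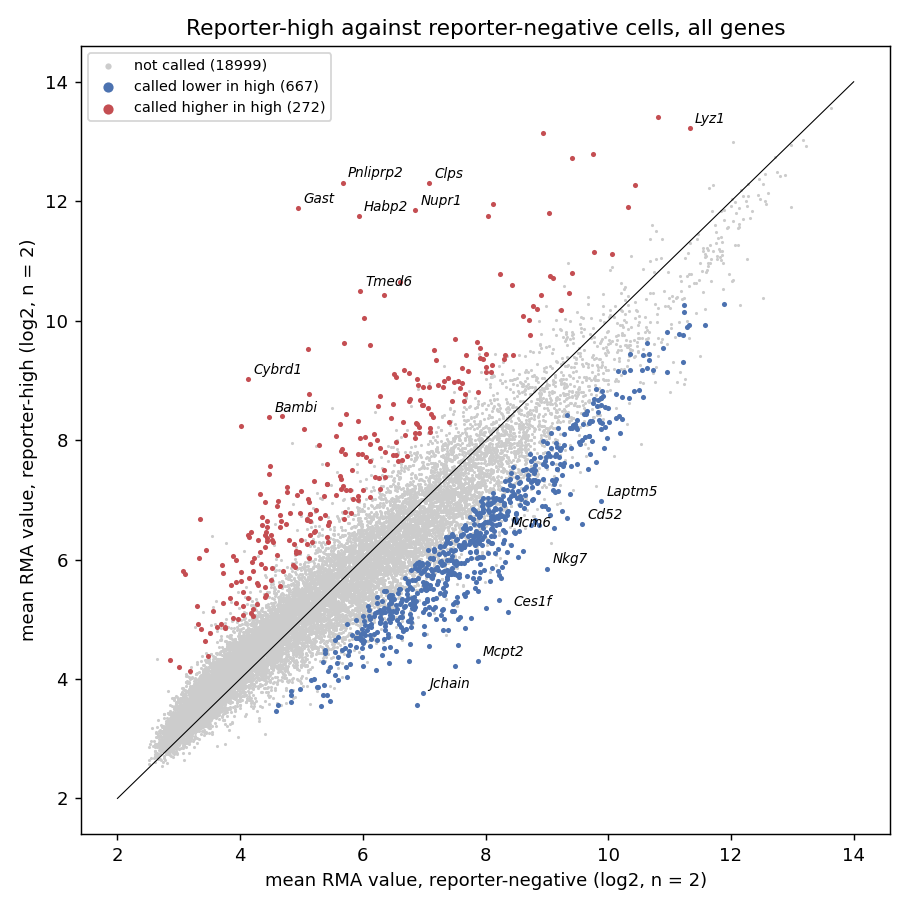
Mean RMA value of the 2 reporter-high arrays (vertical axis, log2) against that of the 2 reporter-negative arrays (horizontal axis, log2), 1 point per gene; red marks the 272 genes called higher, blue the 667 called lower and grey the genes not called. Gast, Pnliprp2, Habp2 and Clps lie farthest above the diagonal, and the immune genes Mcpt2, Jchain and Nkg7 lie far below it.

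The reporter's own gene did not separate the gates. Cfap126 stood at 5.39 and 4.79 on the negative arrays and at 5.15 and 4.996 on the high arrays. The groups overlapped, and the difference was -0.01 ± 0.36 (SE; limma, adjusted p = 0.983). The labels do not say where the probes lie relative to the reporter allele, so this value does not check the sort. Of the marker genes, Habp2, a serine protease that binds hyaluronan, read 5.68 and 6.18 on the negative arrays and 11.89 and 11.60 on the high arrays. Both high arrays lay far above both negative arrays, by 5.82 ± 0.24 or 56.4-fold (limma, adjusted p = 0.000844). Habp2 was also higher on the high than on the low arrays (9.88 and 10.16), by 1.73 (adjusted p = 0.0122). The levels of Lyz1, Atoh1 and Mcm6 are given with their groups.

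**Figure D3:**
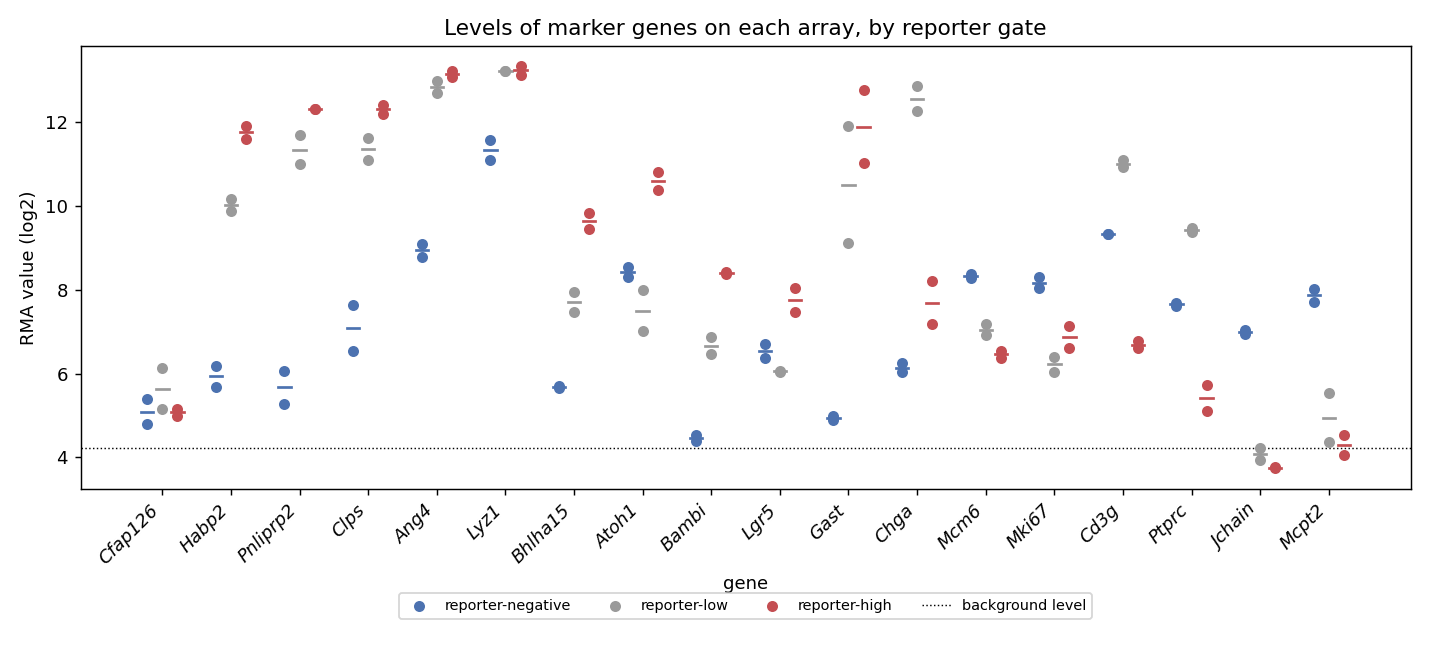
RMA values (vertical axis, log2) of 18 genes on each array; points are arrays, short lines are means of 2 arrays, colours are the 3 gates and the dotted line is the background level. Habp2, Pnliprp2, Clps and Bhlha15 step up from negative to high, Chga peaks in the low gate, and Cd3g and Ptprc are lowest in the high gate.

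Genes for Paneth cell antimicrobials were higher in reporter-high cells. Of 36 genes in this list 13 were measured under a symbol of their own, and of these 7 rose and none fell, with a median difference of 1.90 against 0.10 over all genes. The list was bright in low cells too. The log2 of its summed signal was 14.10 and 13.48 on the negative arrays. It was 15.50 and 15.47 on the low and 15.90 and 15.46 on the high arrays. None of the 13 was called between high and low cells. Lyz1, the lysozyme of Paneth granules, was already bright in negative cells at 11.57 and 11.08 and reached 13.33 and 13.12 in high cells. The gates did not overlap, and the difference was 1.90 ± 0.22 (limma, adjusted p = 0.0131). Ang4, an antimicrobial ribonuclease, stood at 8.79 and 9.09 on the negative and at 13.22 and 13.08 on the high arrays, which is 18.5-fold. Pla2g2a, a bactericidal phospholipase, read 6.77 and 6.45 against 11.48 and 9.81, so the high arrays differed from each other by more than a unit but neither came near the negative pair. The defensins Defa39 (2.59 ± 0.19) and Defa24 (1.57 ± 0.23), the lectin Itln1 (3.04 ± 0.23) and Reg4 (3.71 ± 0.64) were the other genes called. The defensins are near-identical copies of one another, and signal may be shared between them. Mptx1, a pentraxin of Paneth cells, was not called (adjusted p = 0.2), and its negative arrays lay far apart, at 7.46 and 3.55 against 9.28 and 7.80. The antibacterial lectins Reg3b (-0.56 ± 0.66) and Reg3g (0.19 ± 0.69), which enterocytes make too, did not pass the test, and both varied by more than 1 between the high arrays. Ang4 still passed without negative replicate 1 or 2, and the other calls named here did not (adjusted p 0.0562 to 0.15). Reg4 did not pass without either low array and without high replicate 1 (adjusted p 0.0548 to 0.0586), nor did Defa24 without high replicate 2 (adjusted p = 0.0536).

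The wider set of Paneth products held 5 of the 12 largest rises. Of its 30 members 12 rose and 1, the purine enzyme Xdh, fell by 1.70, with a median difference of 1.06. The log2 of the list's summed signal was 13.6 and 13.3 on the negative arrays. It was 14.5 and 14.8 on the low and 15.7 and 15.5 on the high arrays. Against low cells 5 members were called higher and 1 lower. Pnliprp2, a lipase related to that of the pancreas, went from 6.06 and 5.28 to 12.30 and 12.31. That is a 99.7-fold difference, and the high arrays were all but equal. Its cofactor colipase, Clps, went from 7.62 and 6.53 to 12.41 and 12.19 (5.22 ± 0.38; limma, adjusted p = 0.0041). The ribonuclease Rnase1 stood at 8.10 and 8.13 on the negative and at 11.94 and 11.95 on the high arrays, a difference of 3.83 ± 0.17 with almost no spread inside either gate. Nupr1, a stress-induced chromatin protein, read 7.53 and 6.18 against 11.85 and 11.84. Mmp7, the protease that activates mouse defensins, rose by 3.31 ± 0.26, the matrix protein gene Thbs1 by 4.43 ± 0.36, the chemokine gene Ccl6 by 2.77 ± 0.24, the coat protein gene Copz2 by 3.71 ± 0.36 and the surface marker Cd24a by 1.84 ± 0.22. The signals that Paneth cells send to stem cells were dim: Egf was at or under 4.10 and Wnt3 at or under 3.90 on the negative arrays, and they were higher by at least 0.99 and at least 1.14. For wider Paneth product genes the counts became 12 higher and 3 lower with median-centred arrays. Without negative replicate 1 Pnliprp2, Clps, Rnase1, Nupr1 and Mmp7 still passed, without negative replicate 2 Pnliprp2, Clps, Rnase1 and Nupr1 did, and the other calls named here were lost (adjusted p 0.0628 to 0.211). Wnt3 did not pass without either low array (adjusted p = 0.0722), nor did Xdh without high replicate 2 (adjusted p = 0.0833). With quantile normalization Wnt3 and Xdh did not pass (adjusted p 0.0579 to 0.0683).

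Clps, Pnliprp2 and Rnase1 are best known from the exocrine pancreas, so acinar genes were set beside them, a list chosen after values were seen. Of its 14 measured members, none was called, and the brightest on these 4 arrays, the elastase Cela2a, reached 6.63. The trypsinogen Try4 (3.16 to 3.30) and the acinar factor Rbpjl (4.36 to 5.23) were near background on all 4. Genes of the stomach lining, likewise chosen after values were seen, varied between arrays of 1 gate and none of 14 was called. Gkn1 read 8.44 and 6.30 on the negative and 6.66 and 5.70 on the high arrays, and Tff2 read 8.11 and 4.91 against 6.00 and 4.76. Among liver-type plasma protein genes 3 of 28 rose, with a median of 0.43: Habp2, the retinol carrier Rbp4 (4.70 and 4.90 against 6.73 and 5.94) and the lipoprotein gene Apoa2 (6.00 and 5.85 against 6.94 and 7.06). Rbp4 was far brighter in low cells, at 10.19 and 9.82. The 3 liver-type plasma protein rises became 1 without either low array. Habp2 still passed without negative replicate 1 or 2, and the other calls named here did not (adjusted p 0.179 to 0.238). Rbp4 and Apoa2 did not pass without either low array (adjusted p 0.058 to 0.0646), nor did Apoa2 without high replicate 1 and without high replicate 2 (adjusted p 0.0508 to 0.0945).

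Outside the Paneth lists, the largest rises were of Gast, Cybrd1, Tmed6, Samd5 and Ghrl. Cybrd1, a ferric reductase of the duodenal brush border, was near background on the negative arrays (4.25 and 4.01) and read 9.21 and 8.82 on the high arrays, a difference of 4.88 ± 0.53. The low arrays lay between and apart, at 6.56 and 4.78. Tmed6, a cargo receptor of the early secretory pathway, went from 5.74 and 6.18 to 10.74 and 10.24. Samd5 was below background in negative cells (3.92 and 4.11) and at 8.20 and 8.27 in high cells, a rise of at least 4.01. Acvr1c, a TGF-beta family receptor, went from 4.79 and 5.30 to 8.22 and 8.14, and Nucb2, a calcium-binding secreted protein, from 5.88 and 6.15 to 10.09 and 10.004. These last genes were chosen after their values were seen. Of these calls, Tmed6, Samd5, Acvr1c and Nucb2 passed without negative replicate 1 or 2 and the rest did not (adjusted p 0.102 to 0.155).

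Several transcription factors of the secretory lineages rose. Of 29 measured secretory fate factors 5 rose and none fell, with a median of 0.25. Atoh1, the factor that commits precursors to secretory fate, read 8.31 and 8.54 in negative and 10.38 and 10.80 in high cells. The gates did not overlap, with a difference of 2.16 ± 0.34 (limma, adjusted p = 0.0237), and Atoh1 was lower in low cells (7.01 and 7.998) than in high cells by 3.09 (adjusted p = 0.00512). Bhlha15 (Mist1), which organises granule storage in serous cells, went from 5.71 and 5.66 to 9.43 and 9.81, 15.3-fold. Sox9, which Paneth cells need in order to form, rose by 1.80 ± 0.17, the forkhead factor Foxa3 by 1.46 ± 0.18 and the corepressor Cbfa2t3 by 1.67 ± 0.26. Gfi1 (0.23 ± 0.20), Spdef (0.87 ± 0.43) and Xbp1 (0.57 ± 0.27), which act in Paneth and goblet cells, did not pass the test. The absorptive factors Hnf4a (-1.11 ± 0.32) and Elf3 (-1.05 ± 0.33) did not pass it either. For secretory fate genes the counts became 6 higher and 3 lower without high replicate 1 and 3 higher and 0 lower without high replicate 2. Bhlha15 still passed without negative replicate 1 or 2, and the other calls named here did not (adjusted p 0.0993 to 0.168). Atoh1 and Cbfa2t3 did not pass without high replicate 2 (adjusted p 0.0601 to 0.0717).

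Stem cell genes moved in both directions. Of 24 measured genes of Lgr5-positive crypt base columnar cells, 3 rose and 3 fell, with a median of -0.19. Lgr5, the R-spondin receptor that marks these cells, read 6.37 and 6.71 in negative and 7.47 and 8.03 in high cells, a difference of 1.21 ± 0.25 (limma, adjusted p = 0.0447). The Wnt inhibitor Nkd1 rose by 0.98 ± 0.18, and Sox9 is in this list too. Slc14a1, a urea transporter, fell from 7.32 and 7.07 to 4.75 and 5.25, and the kinase gene Cdk6 (-1.06 ± 0.21) and the vitamin D receptor gene Vdr (-1.19 ± 0.24) fell too. Olfm4, an abundant stem cell product, read 10.81 and 10.95 against 9.63 and 9.76, which did not pass (adjusted p = 0.111). None of 10 reserve stem cell genes was called, among them Bmi1 (0.66 ± 0.30), Hopx (0.55 ± 0.33), Lrig1 (-0.05 ± 0.30) and Tert, which lay below background on all 4 arrays. The differences of the 10 ran from -2.09 to 1.23. For crypt base columnar cell genes the counts became 1 higher and 3 lower without either low array, 3 higher and 1 lower without high replicate 1, 1 higher and 1 lower without high replicate 2, 4 higher and 1 lower with quantile normalization and 2 higher and 1 lower with array weights and with a trend and robust prior. Leaving out negative replicate 1 or 2 ended each of these calls (adjusted p 0.0993 to 0.259). Lgr5, Nkd1 and Cdk6 did not pass without either low array (adjusted p 0.0675 to 0.0853), Cdk6 and Vdr without high replicate 1 (adjusted p 0.0547 to 0.0551), nor did Lgr5, Nkd1, Cdk6 and Vdr without high replicate 2 (adjusted p 0.0629 to 0.108). On quantile normalized values Cdk6 and Vdr did not pass (adjusted p 0.101 to 0.126).

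Among the pathways that act in the crypt niche, the share of genes called differed between lists. It was 18.5% for canonical Wnt genes and 6.25% for Wnt ligands and receptors. It was 3.23% for planar cell polarity and 3.13% for Notch genes, beside 4.71% over all genes. Of 27 canonical Wnt genes 4 rose (Lgr5, Nkd1, Sox9, Mmp7) and 1, cyclin D1 (Ccnd1), fell by 1.33 ± 0.25, with a median of 0.21. The feedback gene Axin2 read 7.56 and 7.51 against 6.64 and 7.03 and was not called. Of 32 Wnt ligands and receptors 2 rose, Wnt3 and the R-spondin receptor Lgr4 (7.43 and 7.47 against 8.63 and 8.68), with a median of 0.31. Of 31 planar cell polarity genes 1 rose, the kinase target Jun (0.94 ± 0.18), with a median of 0.14 beside 0.10 over all genes. The core gene Vangl2 lay below background on all 4 arrays (3.89 to 4.21), and Rhoa (-0.12 ± 0.19) and Mapk9 (-0.89 ± 0.27) did not pass. None of 39 cilium and axoneme genes was called (median 0.24), and 1 of 32 Notch genes rose, Dtx3 (1.32 ± 0.26, median 0.19). Dtx3 was higher in low cells, at 7.43 and 6.77, than in high cells at 5.59 and 5.60. For canonical Wnt genes the counts became 2 higher and 0 lower without either low array and 7 higher and 1 lower without high replicate 1. Without negative replicate 1 Mmp7 still passed, without negative replicate 2 none did, and the other calls named here were lost (adjusted p 0.0628 to 0.259). Lgr5, Nkd1, Ccnd1, Wnt3 and Jun did not pass without either low array (adjusted p 0.0675 to 0.0853), Dtx3 without high replicate 1 (adjusted p = 0.0594), nor did Lgr5, Nkd1, Ccnd1, Jun and Dtx3 without high replicate 2 (adjusted p 0.0518 to 0.0889). Quantile normalization ended the call of Ccnd1, Wnt3 and Dtx3 (adjusted p 0.0503 to 0.0683).

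Growth factor genes gave larger single changes. Of 28 BMP signalling genes 2 rose and 2 fell, with a median of -0.01. Bambi, a decoy receptor that dampens TGF-beta and BMP signals, read 4.40 and 4.54 in negative and 8.36 and 8.41 in high cells, 15.1-fold, with low cells between at 6.88 and 6.45. The ligand gene Bmp7 rose by 2.08 ± 0.23. The BMP target Id1 went from 7.76 and 8.12 to 6.48 and 6.68, and Id2 from 6.73 and 7.25 to 5.23 and 4.55. Id2 was brightest in low cells (8.91 and 8.85), and lymphocytes express it as well. Of 24 EGF family genes 1, Egf, rose and 4 fell, with a median of -0.05. The falls were of the receptors Erbb2 (-1.34 ± 0.21) and Erbb3 (-1.23 ± 0.25), the ligand gene Hbegf (-1.56 ± 0.26) and the Lrig family gene Lrig3 (-1.17 ± 0.23). Of 20 Eph receptor and ephrin genes 2 fell, Efna1 (-1.56 ± 0.27) and Epha1 (-1.10 ± 0.22), with a median of 0.09. For EGF family genes the counts became 1 higher and 2 lower without either low array, with array weights and with a trend and robust prior, 1 higher and 0 lower without high replicate 2 and 1 higher and 1 lower with quantile normalization. For Eph and ephrin genes the counts became 0 higher and 0 lower without either low array and 1 higher and 0 lower with quantile normalization (median -0.12). Of these calls, Bambi passed without negative replicate 1 or 2 and the rest did not (adjusted p 0.106 to 0.25). Erbb3, Lrig3, Efna1 and Epha1 did not pass without either low array (adjusted p 0.0542 to 0.073), Hbegf and Epha1 without high replicate 1 (adjusted p 0.05 to 0.0603), nor did Erbb2, Erbb3, Hbegf, Lrig3 and Epha1 without high replicate 2 (adjusted p 0.0528 to 0.0929). With quantile normalization Id1, Erbb3, Hbegf, Lrig3, Efna1 and Epha1 did not pass (adjusted p 0.0622 to 0.0933).

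Some genes of the unfolded protein response were higher in reporter-high cells, with 9 of 35 measured members risen and none fallen. The list's median difference was 0.36. Its median level was 8.08 and 7.99 on the negative arrays, 8.12 and 8.18 on the low and 8.75 and 8.21 on the high. The high and negative arrays did not overlap for 20 of the 35, beside 55.2% of all genes. With quantile normalization the number of rises was again 9 and the median difference 0.69. Both Ire1 sensors were among them. Ern2, the form found in secretory epithelia, read 7.47 and 7.55 in negative and 10.14 and 9.23 in high cells (2.18 ± 0.33). Ern1, the form found in most tissues, read 6.19 and 6.26 against 8.15 and 7.85 (1.78 ± 0.19; limma, adjusted p = 0.0111). Neither gate overlapped the other for these genes. Sel1l, Herpud1, Edem1 and Edem3, which take misfolded proteins out of the endoplasmic reticulum, rose by 1.91 ± 0.23, 1.63 ± 0.23, 1.58 ± 0.27 and 1.45 ± 0.27. The cochaperone gene Dnajb9 rose by 1.43 ± 0.21 and Dnajc3 went from 8.60 and 8.83 to 9.97 and 10.06, and the disulfide oxidase Ero1b rose by 1.85 ± 0.24. The abundant chaperones were not called: Hspa5 read 10.19 and 9.85 against 10.41 and 9.95, and Hsp90b1 read 10.86 and 10.67 against 10.57 and 9.99. None of these calls held without negative replicate 1 or without negative replicate 2 (adjusted p 0.092 to 0.208). Edem3 did not pass without either low array (adjusted p = 0.0548), nor did Edem1 without high replicate 1 and without high replicate 2 (adjusted p 0.0522 to 0.0535).

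Genes of this response are known to be switched on through the ER stress element, a CCAAT box and a CCACG box 9 bases apart, and the 250 bases before the start of those called genes that hold it are shown with these boxes in capitals. The sequences are RefSeq's on build GRCm38.p6, given 5′ to 3′ on the gene's strand. Dnajc3 lies on the plus strand (chr14:118937682-118937931) and holds the element as written, while Ero1b (plus strand, chr13:12565633-12565882) holds its reverse complement.
Dnajc3: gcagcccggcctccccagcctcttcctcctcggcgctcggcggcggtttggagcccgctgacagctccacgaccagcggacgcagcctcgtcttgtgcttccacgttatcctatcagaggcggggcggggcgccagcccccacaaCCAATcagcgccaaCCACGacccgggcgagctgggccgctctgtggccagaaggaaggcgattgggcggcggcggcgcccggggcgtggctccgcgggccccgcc
Ero1b: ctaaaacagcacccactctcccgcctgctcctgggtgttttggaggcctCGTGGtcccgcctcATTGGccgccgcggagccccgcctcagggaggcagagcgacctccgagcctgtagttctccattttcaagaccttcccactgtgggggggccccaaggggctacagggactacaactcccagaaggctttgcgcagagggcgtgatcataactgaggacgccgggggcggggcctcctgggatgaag
Read on both strands as CCAAT, 9 bases of any kind and CCACG, the element was found before 10 of the 30 list members with a promoter entry (33.3%) and before 35 of all 27025 genes with one (0.13%). Of the 8 risen members with an entry, 2 held it, and a match describes letters only.

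Other stress and export genes changed in smaller numbers. The share called was 16.1% for integrated stress response and 8% for translocon and coat genes. It was 6.25% for lysosome and autophagy genes, 7.41% for immediate early and dissociation genes and 4.71% over all genes. Of 31 integrated stress response genes 4 rose and 1 fell, with a median of 0.43. Besides Nupr1 these were the mitochondrial folate enzyme Aldh1l2, below background in negative cells (3.69 and 3.71) and at 6.03 and 5.79 in high cells, the asparagine synthetase gene Asns (7.60 and 6.77 against 9.88 and 8.81) and the tRNA synthetase gene Wars (1.12 ± 0.20). Cth, which makes cysteine, fell by 1.57 ± 0.19. Of 50 translocon and coat genes 3 rose, the signal peptidase subunits Spcs3 (1.52 ± 0.24) and Sec11c (1.48 ± 0.24) and the translocon protein gene Ssr3 (0.97 ± 0.19), and the coat gene Sec23a fell by 1.14 ± 0.22, with a median of 0.24. Of 32 lysosome and autophagy genes Lamp2 (1.41 ± 0.20) and Gabarapl1 (1.45 ± 0.21) rose (median 0.05), and of 27 immediate early and dissociation genes Btg2 (1.47 ± 0.20) and Jun did (median 0.05). For integrated stress response genes the counts became 2 higher and 1 lower without either low array and 8 higher and 3 lower without high replicate 1 (median 0.22). For translocon and coat genes the counts became 4 higher and 4 lower without high replicate 1 and 5 higher and 0 lower with quantile normalization (median 0.60). For lysosome and autophagy genes the counts became 4 higher and 2 lower without high replicate 1. For immediate early and dissociation genes the counts became 2 higher and 3 lower without high replicate 1 and 5 higher and 0 lower with quantile normalization (median 0.31). Of these calls, Nupr1 passed without negative replicate 1 or 2 and the rest did not (adjusted p 0.0866 to 0.23). Asns, Wars, Ssr3, Sec23a and Jun did not pass without either low array (adjusted p 0.0598 to 0.0799), nor did Wars, Sec11c, Ssr3, Sec23a and Jun without high replicate 2 (adjusted p 0.0518 to 0.0879). Quantile normalization ended the call of Sec23a (adjusted p = 0.0864).

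Cell division genes were lower in reporter-high cells. Of 52 mitotic genes 28 fell and none rose, with a median difference of -1.18, and 50 of the 52 had a negative sign. Low cells were low in these genes as well. The median level was 6.79 and 6.67 on the negative arrays, 5.18 and 4.99 on the low and 5.37 and 5.41 on the high. Against low cells 2 were called higher and 2 lower (median 0.41). Mki67, the proliferation marker, read 8.29 and 8.03 in negative and 7.14 and 6.60 in high cells (-1.29 ± 0.25; limma, adjusted p = 0.0403). Foxm1, the factor that drives mitotic genes, went from 6.54 and 6.53 to 4.58 and 4.36, and the kinetochore gene Knl1 from 7.23 and 7.37 to 5.19 and 4.45. The spindle motor Kif11 (-1.71 ± 0.20), the spindle assembly gene Tpx2 (-1.73 ± 0.20) and the condensin genes Smc2 (-1.83 ± 0.22) and Smc4 (-1.72 ± 0.21) fell as well. For each of these the gates stood apart. The 28 mitotic falls became 15 without either low array, 14 without high replicate 2, 18 with quantile normalization and 17 with array weights. All of these calls were lost when negative replicate 1 or 2 was left out (adjusted p 0.092 to 0.239). Mki67 did not pass without either low array and without high replicate 2 (adjusted p 0.0661 to 0.0873). With quantile normalization Mki67 did not pass (adjusted p = 0.0784).

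DNA replication genes went the same way in smaller number. Of 54 measured, 9 fell and 1 rose, with a median of -0.78. Their median level was 6.29 and 6.33 on the negative arrays, 5.38 and 5.59 on the low and 5.41 and 5.29 on the high. Against low cells 2 were called higher and none lower (median 0.12). Mcm6, a subunit of the replicative helicase, read 8.27 and 8.37 in negative and 6.38 and 6.53 in high cells. Its gates stood apart by 1.86 ± 0.19, a 3.64-fold fall (limma, adjusted p = 0.00976). The helicase subunit Mcm4 fell by 1.58 ± 0.25, and the ribonucleotide reductase subunit Rrm1 went from 7.67 and 7.13 to 5.51 and 4.13. The gene that rose was Rfc1, the large subunit of the clamp loader, from 6.37 and 6.54 to 8.59 and 8.13. Core histone genes fell in 5 of 14 (median -1.68), among them the variant H2ax (9.71 and 9.65 against 7.95 and 8.17), and their copies are near-identical, so signal may be shared. None of the 14 was called between high and low cells (median 0.10). Of 24 cyclin and inhibitor genes 4 fell and none rose (median -0.46): Ccnd1, Cdk6, the E2F repressor E2f8 (-1.57 ± 0.20) and the pocket protein gene Rbl1 (-0.82 ± 0.17). For DNA replication genes the counts became 1 higher and 4 lower without either low array, 1 higher and 3 lower without high replicate 2, 1 higher and 2 lower with quantile normalization, 1 higher and 14 lower with median-centred arrays and 1 higher and 5 lower with array weights. The 5 core histone falls became 9 without high replicate 1 and 2 without high replicate 2 (median -1.10). The 4 cyclin and inhibitor falls became 1 without either low array and without high replicate 2, 1 with quantile normalization (median -0.24) and 2 with array weights and with a trend and robust prior. Every call named here was lost on leaving out negative replicate 1 or 2 (adjusted p 0.0993 to 0.25). Rrm1, Ccnd1, Cdk6 and Rbl1 did not pass without either low array (adjusted p 0.0533 to 0.0958), Cdk6 without high replicate 1 (adjusted p = 0.0547), nor did Mcm4, Ccnd1, Cdk6 and Rbl1 without high replicate 2 (adjusted p 0.0557 to 0.0887). On quantile normalized values Rrm1, Ccnd1, Cdk6 and Rbl1 did not pass (adjusted p 0.0579 to 0.101).

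Mitotic genes are known to be timed by a CHR element near the start site, often beside a CCAAT box, and replication genes by E2F sites, so 3 promoters of genes that fell are shown, with CHR and CCAAT in capitals for Kif11 and Cdc20 and E2F sites alone in capitals for Mcm6. They are RefSeq's 250 bases before the start on GRCm38.p6, 5′ to 3′ on the gene's strand. Kif11 is on the plus strand (chr19:37376132-37376381), Cdc20, a mitotic activator chosen after its value was seen (-1.32 ± 0.27), on the minus strand (chr4:118437344-118437593), and Mcm6 on the minus strand (chr1:128359706-128359955).
Kif11: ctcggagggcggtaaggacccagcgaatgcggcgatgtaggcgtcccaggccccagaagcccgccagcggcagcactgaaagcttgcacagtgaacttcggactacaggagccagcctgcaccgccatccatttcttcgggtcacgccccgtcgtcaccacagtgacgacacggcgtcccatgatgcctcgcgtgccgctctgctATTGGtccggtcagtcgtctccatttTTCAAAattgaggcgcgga
Cdc20: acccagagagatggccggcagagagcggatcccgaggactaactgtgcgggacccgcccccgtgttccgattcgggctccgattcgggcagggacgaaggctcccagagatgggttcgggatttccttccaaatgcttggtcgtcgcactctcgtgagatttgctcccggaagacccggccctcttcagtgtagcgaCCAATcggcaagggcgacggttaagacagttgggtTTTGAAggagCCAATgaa
Mcm6: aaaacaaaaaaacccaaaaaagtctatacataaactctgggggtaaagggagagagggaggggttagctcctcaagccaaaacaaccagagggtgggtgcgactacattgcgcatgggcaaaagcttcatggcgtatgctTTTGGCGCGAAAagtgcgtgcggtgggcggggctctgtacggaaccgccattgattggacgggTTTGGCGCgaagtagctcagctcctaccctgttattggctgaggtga
On either strand TTTGAA (CHR) was found before 16 of 43 mitotic genes with an entry (37.2%), before 10 of the 23 that fell (43.5%) and before 18.3% of all genes. CCAAT was found before 30 of the 43 and before 37.5% of all genes. TTTNGCGC (E2F), in which overlapping matches were kept, was found before 7 of 46 replication genes (15.2%), 2 of the 8 that fell and 1.31% of all genes.

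**Figure D4:**
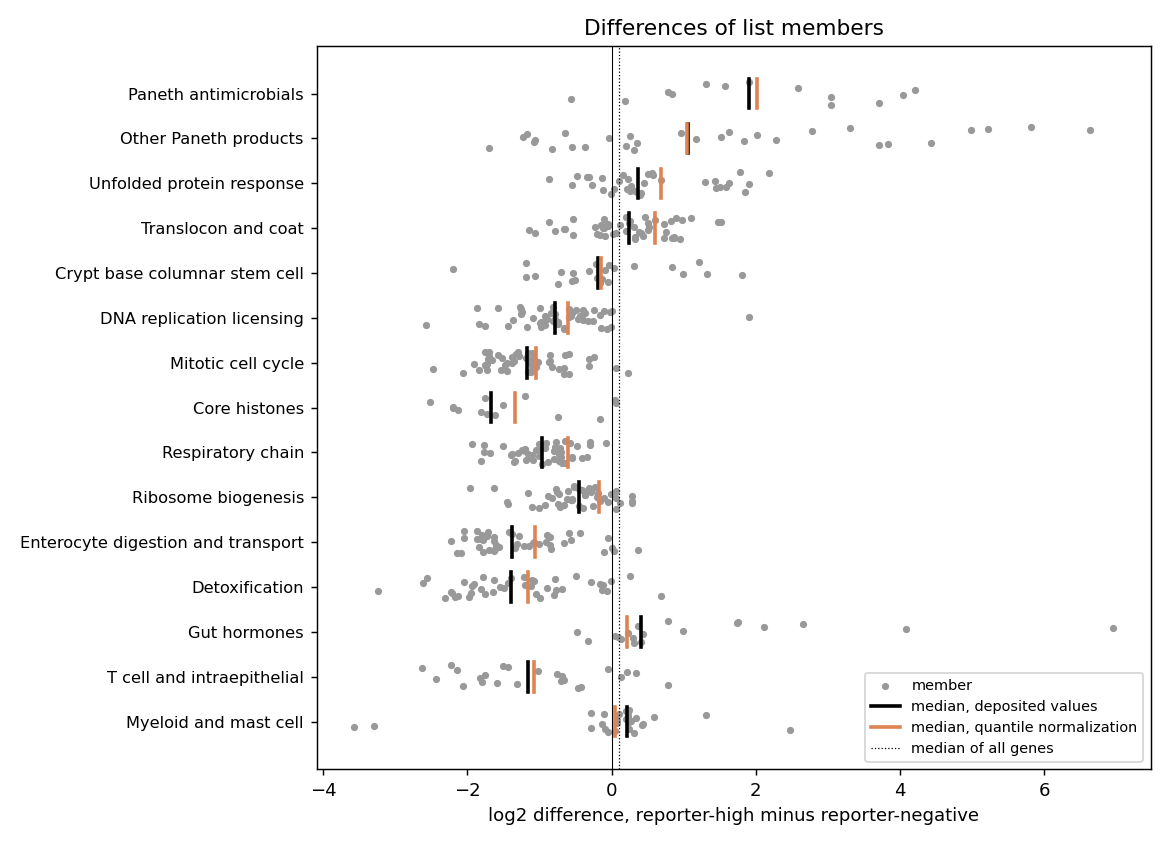
Log2 difference between reporter-high and reporter-negative cells (horizontal axis) of every measured member of 15 gene lists (grey points); black lines are list medians on the deposited values, orange lines medians after quantile normalization and the dotted line the median of all genes. Mitotic, histone, respiratory and enterocyte medians lie below 0 on both scales and the medians of both Paneth lists above it.

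Genes of energy metabolism were lower. All 52 measured respiratory chain genes had a negative difference, 11 of them fell and the median was -0.97. These are bright genes, with a median level of 10.12 and 9.99 on the negative arrays, and the brightest 4985 of all genes had a median of -0.34. Quantile normalization brought the median to -0.61. Low cells read much as high cells did, with a median level of 9.19 and 9.19 against 9.15 and 9.07. No respiratory chain gene was called between these 2 gates (median -0.11). Ndufb6 of complex I read 9.84 and 9.85 in negative and 8.22 and 8.45 in high cells (-1.51 ± 0.20; limma, adjusted p = 0.0174). Cytochrome c1 (Cyc1) went from 9.98 and 9.90 to 8.79 and 8.31, and the ATP synthase subunit Atp5d from 10.91 and 11.02 to 9.59 and 8.70. Of 19 glycolysis genes 3 fell, Pfkp (-1.97 ± 0.21), Pgam1 (-1.41 ± 0.25) and Ldha (-0.99 ± 0.18), with a median of -0.77. With the replicate number as a block 5 glycolysis genes fell. Outside energy metabolism, of 48 ribosome biogenesis genes Nip7 (-1.44 ± 0.23) and Wdr43 (-1.16 ± 0.24) fell (4.17%, median -0.45). Of 28 sterol and lipid synthesis genes the fatty acid enzymes Elovl5 (-1.41 ± 0.22) and Fads1 (-1.70 ± 0.30) fell (7.14%, median -0.54). Over all genes 3.35% fell, so the ribosome biogenesis count lay near that share. For respiratory chain genes the counts became 0 higher and 3 lower without either low array, 1 higher and 23 lower without high replicate 1, 0 higher and 3 lower with quantile normalization (median -0.61), 0 higher and 20 lower with median-centred arrays and 0 higher and 7 lower with array weights. The 3 glycolysis falls became 1 without either low array and with quantile normalization and 9 without high replicate 1. The 2 ribosome biogenesis falls became 10 without high replicate 1 and 4 with median-centred arrays and with a filter on dim genes. The 2 sterol and lipid synthesis falls became 4 without high replicate 1 and with median-centred arrays. None of these calls held without negative replicate 1 or without negative replicate 2 (adjusted p 0.103 to 0.239). Atp5d, Pgam1, Ldha, Wdr43 and Fads1 did not pass without either low array (adjusted p 0.0509 to 0.0854), Wdr43 and Fads1 without high replicate 1 (adjusted p 0.0505 to 0.0721), nor did Pgam1, Nip7, Wdr43 and Elovl5 without high replicate 2 (adjusted p 0.0518 to 0.0761). Quantile normalization ended the call of Pgam1, Ldha, Wdr43 and Fads1 (adjusted p 0.055 to 0.166).

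Genes of absorptive cells were lower as well. Of 45 enterocyte genes 14 fell and none rose, with a median of -1.39. Abcg5, a sterol exporter, read 6.92 and 7.10 in negative and 5.25 and 5.08 in high cells (-1.84 ± 0.18; limma, adjusted p = 0.00931). The peptide transporter Slc15a1 went from 8.17 and 8.14 to 5.99 and 6.23, and the brush-border peptidase Dpp4 from 9.32 and 9.11 to 7.83 and 7.82. Lactase (Lct, -1.71 ± 0.27), the cholesterol transporter Npc1l1 (-1.56 ± 0.21) and the keratin of mature villus cells Krt20 (-1.70 ± 0.22) fell too. Alpi, the intestinal alkaline phosphatase, differed by more than 1.5 within each gate (11.15 and 9.47 against 9.28 and 7.26) and was not called (adjusted p = 0.308). Replicate 1 was the higher in both gates and in low cells (10.24 and 7.38). In a fit with the replicate number as a block Alpi was called (limma, adjusted p = 0.0245). Of 43 detoxification genes 11 fell and none rose, with a median of -1.40: Ces1f, a carboxylesterase, went from 8.68 and 8.06 to 5.56 and 4.69, and the bright glutathione transferase Gstp1 from 11.23 and 11.19 to 9.60 and 9.005. With the replicate number as a block 26 enterocyte and 17 detoxification genes fell. The 14 enterocyte falls became 5 without high replicate 2, 6 with quantile normalization and 7 with array weights. The 11 detoxification falls became 6 without high replicate 2. Leaving out negative replicate 1 or 2 ended each of these calls (adjusted p 0.0993 to 0.167). Lct and Ces1f did not pass without high replicate 2 (adjusted p 0.0515 to 0.062).

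Goblet genes split and tuft genes did not pass. Of 23 goblet genes 3 rose, Sytl2 (6.49 and 6.01 against 8.79 and 8.35), Ern2 and Atoh1, and 3 fell, Clca1 (11.41 and 11.23 against 9.67 and 10.18), Fer1l6 (-1.27 ± 0.23) and Bcas1 (-1.16 ± 0.25), with a median of 0.50. With the replicate number as a block 3 goblet genes rose and 5 fell. The defining mucin Muc2 was bright in both gates, at 11.95 and 11.46 against 12.53 and 12.01, and did not pass (0.57 ± 0.26; limma, adjusted p = 0.265). The trefoil factor Tff3 (-0.19 ± 0.23) did not pass either. None of 20 tuft cell genes was called (median -0.04), although 2 rose without high replicate 1, and the tuft marker Dclk1 lay near background at 5.39 and 4.43 against 4.15 and 4.49. For goblet genes the counts became 3 higher and 0 lower without either low array, 2 higher and 1 lower without high replicate 2, 5 higher and 1 lower with quantile normalization, 3 higher and 5 lower with a filter on dim genes and 3 higher and 1 lower with array weights. All of these calls were lost when negative replicate 1 or 2 was left out (adjusted p 0.108 to 0.258). Clca1, Fer1l6 and Bcas1 did not pass without either low array (adjusted p 0.0525 to 0.0855), Bcas1 without high replicate 1 (adjusted p = 0.0698), nor did Atoh1, Fer1l6 and Bcas1 without high replicate 2 (adjusted p 0.0717 to 0.109). On quantile normalized values Clca1 and Bcas1 did not pass (adjusted p 0.0754 to 0.111).

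Some hormone genes rose, and as a list they were brightest in low cells. The log2 of their summed signal was 10.31 and 9.75 on the negative, 15.81 and 15.41 on the low and 13.55 and 12.25 on the high arrays. Of 19 gut hormone genes 4 rose in high against negative cells and none fell, with a median of 0.41. Gast, which encodes gastrin, was at 4.99 and 4.88 in negative cells and at 12.76 and 11.01 in high cells. This was the largest difference of all, 6.95 ± 0.91 or 123-fold (limma, adjusted p = 0.0167), and the high arrays lay apart. The low arrays stood at 11.89 and 9.11, not called apart from the high arrays (1.39, adjusted p = 0.385). Ghrelin (Ghrl) read 6.18 and 6.51 in negative, 12.73 and 12.002 in low, and 11.48 and 9.38 in high cells. Gip, the incretin of K cells, read 7.29 and 6.56, then 13.47 and 13.25, then 8.55 and 8.80, and somatostatin (Sst) 6.74 and 6.26, then 12.70 and 11.74, then 8.56 and 8.65. High cells were above negative cells by 1.75 ± 0.28 and 2.11 ± 0.34 for these and below low cells by 4.68 and 3.61 (adjusted p = 0.000633 and 0.00259). These comparisons share the high arrays. Every call named here was lost on leaving out negative replicate 1 or 2 (adjusted p 0.0993 to 0.166). Gip and Sst did not pass without high replicate 2 (adjusted p 0.0661 to 0.07).

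All 25 measured granin and prohormone processing genes, which serve hormone storage, had a positive difference (median 0.82). Of these 1 passed the test, Ptprn2, a dense-core vesicle protein gene, which went from 5.84 and 6.23 to 7.96 and 8.13. The list was brightest in low cells. The log2 of its summed signal was 9.96 and 10.004 on the negative, 14.34 and 14.48 on the low and 11.60 and 10.95 on the high arrays. Against low cells 20 of the 25 were called lower and 1 higher (median -2.68). Chga, the granin that marks enteroendocrine cells, read 6.03 and 6.25 in negative, 12.26 and 12.85 in low and 8.20 and 7.17 in high cells. It was not called against negative cells (1.55 ± 0.37; limma, adjusted p = 0.0678) and was below low cells by 4.86 (adjusted p = 0.00126). Of 20 enteroendocrine factors 1 rose, Runx1t1, which was below background on both negative arrays and higher by at least 1.04 (median 0.32). Against low cells 12 of the 20 were called lower and none higher (median -1.74). Of 9 serotonin genes 3 fell and none rose (median -0.48): the reuptake transporter Slc6a4 (7.89 and 8.01 against 6.24 and 6.25), the amine oxidase gene Maob (-1.87 ± 0.25) and the decarboxylase gene Ddc (7.11 and 7.34 against 5.37 and 5.91). The differences of the 9 ran from -1.87 to 1.57. The log2 of their summed signal was 9.50 and 9.38 on the negative, 12.45 and 12.82 on the low and 8.63 and 8.57 on the high arrays. Against low cells 8 of the 9 were called lower. The single granin and prohormone processing rise became 6 without high replicate 2 and 4 with a filter on dim genes. None of these calls held without negative replicate 1 or without negative replicate 2 (adjusted p 0.0795 to 0.195). Runx1t1 did not pass without high replicate 2 (adjusted p = 0.0806). With quantile normalization Ddc did not pass (adjusted p = 0.0536).

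Immune cell genes were the other large group to fall, and they mark cells that a crypt preparation can carry. Of 24 T cell and intraepithelial lymphocyte genes 10 fell and none rose, with a median of -1.16, and the log2 of the list's summed signal went from 12.01 and 12.26 on the negative to 10.38 and 10.67 on the high arrays. The list was brightest in low cells, at 13.56 and 13.72, so the order of the gates was low, negative, high. Cd3g, a subunit of the T cell receptor complex, read 9.32 on both negative arrays and 6.76 and 6.61 on the high arrays (-2.63 ± 0.18; limma, adjusted p = 0.00358). The pan-leukocyte gene Ptprc went from 7.69 and 7.61 to 5.11 and 5.72, Cd8a from 8.78 and 8.84 to 6.54 and 6.79, and the integrin gene Itgae, which holds lymphocytes to epithelium, from 7.89 and 8.24 to 5.76 and 5.51. None of these markers was below background on any high array. Of 23 cytotoxic and natural killer genes 8 fell and none rose (median -1.25), among them Nkg7 (8.69 and 9.33 against 6.43 and 5.27), Ctsw (-2.15 ± 0.25) and Gzmb (-1.57 ± 0.24). The 8 cytotoxic falls became 5 without either low array and without high replicate 2 and 2 with quantile normalization. Leaving out negative replicate 1 or 2 ended each of these calls (adjusted p 0.0637 to 0.155). On quantile normalized values Gzmb did not pass (adjusted p = 0.0713).

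A few genes of plasma and mast cells were brightest in negative cells. Jchain, which links antibody chains, read 6.93 and 7.04 in negative cells and lay below background in high (3.74 and 3.78) and low cells (3.93 and 4.22), a fall of at least 2.76 from negative to high. A light chain variable gene among the 12 largest falls lay below background in the same arrays. Of 17 B and plasma cell genes 2 fell, Jchain and Cd79b (6.73 and 7.65 against 5.27 and 5.45), with a median of -0.52. The mast cell proteases Mcpt1 (7.49 and 7.53 against 4.01 and 4.43) and Mcpt2 (7.71 and 8.02 against 4.06 and 4.54) fell, while Kit, the receptor of mast cells that crypt secretory cells also express, rose from 6.43 and 6.11 to 8.94 and 8.55. In low cells Mcpt1 read 5.11 and 3.79, Mcpt2 5.52 and 4.38, and Kit 8.38 and 8.31. They were the called genes among 28 myeloid and mast cell genes, of which 20 had a positive difference (median 0.21). The log2 of that list's summed signal was 10.17 and 10.14 on the negative, 10.46 and 10.71 on the low and 10.54 and 10.45 on the high arrays, so the list as a whole did not follow the proteases. Of 10 MHC class II genes 3 fell (median -0.71): Cd74 (10.04 and 10.42 against 8.68 and 8.76), H2-Ab1 (-1.82 ± 0.27) and H2-Eb1 (-1.56 ± 0.28). Of 25 mesenchymal and endothelial genes 1, Thy1, which lymphocytes share, fell by 1.83 ± 0.35 (median 0.20). The part of these cells in the falls of other lists was not tested. Jchain still passed without negative replicate 1 or 2, and the other calls named here did not (adjusted p 0.0855 to 0.215). Cd79b and H2-Eb1 did not pass without either low array (adjusted p 0.0534 to 0.06), Cd79b and Thy1 without high replicate 1 (adjusted p 0.0511 to 0.0748), nor did Cd79b, H2-Ab1 and Thy1 without high replicate 2 (adjusted p 0.054 to 0.0628). Quantile normalization ended the call of H2-Eb1 and Thy1 (adjusted p 0.0962 to 0.1).

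The 12 largest falls also held further leukocyte genes and epithelial genes. Cd52 read 9.17 and 9.97 against 6.53 and 6.65, Laptm5 9.94 and 9.83 against 6.52 and 7.44, and Arhgdib 8.23 and 8.20 against 5.05 and 5.58. All are known from leukocytes, and low cells were above negative cells in the mean of each. The sulfate transporter gene Slc13a1 (8.43 and 6.90 against 5.16 and 4.56), the actin-severing protein gene Scin (8.23 and 7.30 against 5.57 and 4.47) and the mitochondrial import gene Mtx1 (8.05 and 7.96 against 5.06 and 5.32) also fell. Without negative replicate 1 Cd52 still passed, without negative replicate 2 none did, and the other calls named here were lost (adjusted p 0.0637 to 0.195). Slc13a1 did not pass without either low array (adjusted p = 0.0533), Mtx1 without high replicate 1 (adjusted p = 0.0664), nor did Slc13a1 and Mtx1 without high replicate 2 (adjusted p 0.0822 to 0.0877). With quantile normalization Mtx1 did not pass (adjusted p = 0.0565).

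Single genes of ion and metal transport passed the test, in both directions. The share called was 14.3% for ion channel and transporter, 8% for iron and 17.4% for zinc genes. It was 10% for junction and keratin genes, 13.8% for innate sensors and 4.71% over all genes. Of 42 ion channel and transporter genes 1 rose and 5 fell (median -0.08). Kcnma1, a large-conductance potassium channel, was below background in negative cells (3.81 and 3.95) and at 6.09 and 6.03 in high cells, a rise of at least 1.84. The potassium channel Kcnn4 went the other way, from 7.96 and 7.999 to 5.77 and 5.86, as did the chloride channel Cftr (7.44 and 7.56 against 5.18 and 5.39), Clcn2 (-1.42 ± 0.20), the anion exchanger Slc26a6 (-1.38 ± 0.29) and Clca1. Of 25 iron genes Cybrd1 rose and the transferrin receptor gene Tfrc fell, from 8.48 and 8.69 to 6.92 and 7.09 (median -0.16). Of 23 zinc genes the transporter genes Slc39a8 (1.39 ± 0.22) and Slc30a6 (0.91 ± 0.19) rose and Slc39a5 (-1.16 ± 0.21) and Slc30a1 (-1.10 ± 0.23) fell, with a median of 0.23. Of 30 junction and keratin genes Cldn4 (1.81 ± 0.26) and Krt23 (1.59 ± 0.29) rose and Krt20 fell (median -0.26). Of 29 innate sensor genes 4 fell and none rose (median -0.11): Casp1 (-1.76 ± 0.28), Nlrp6 (-1.55 ± 0.24), Pycard (-1.19 ± 0.24) and Duoxa2 (-1.301 ± 0.19). For ion channel and transporter genes the counts became 3 higher and 3 lower with quantile normalization and 1 higher and 9 lower with median-centred arrays. For iron genes the counts became 1 higher and 3 lower without high replicate 1. For zinc genes the counts became 1 higher and 0 lower without either low array, 3 higher and 4 lower without high replicate 1, 2 higher and 0 lower with quantile normalization and with a trend and robust prior, 2 higher and 4 lower with median-centred arrays and 4 higher and 4 lower with a filter on dim genes. For junction and keratin genes the counts became 2 higher and 4 lower without high replicate 1. For innate sensor genes the counts became 1 higher and 2 lower with quantile normalization. None of these calls held without negative replicate 1 or without negative replicate 2 (adjusted p 0.079 to 0.263). Slc26a6, Clca1, Slc39a8, Slc30a6, Slc39a5, Slc30a1, Krt23 and Pycard did not pass without either low array (adjusted p 0.0506 to 0.0887), Pycard without high replicate 1 (adjusted p = 0.073), nor did Slc26a6, Slc30a6, Slc39a5, Slc30a1, Casp1 and Pycard without high replicate 2 (adjusted p 0.0537 to 0.129). On quantile normalized values Slc26a6, Clca1, Slc39a5, Slc30a1, Nlrp6 and Pycard did not pass (adjusted p 0.0621 to 0.176).

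**Figure D5:**
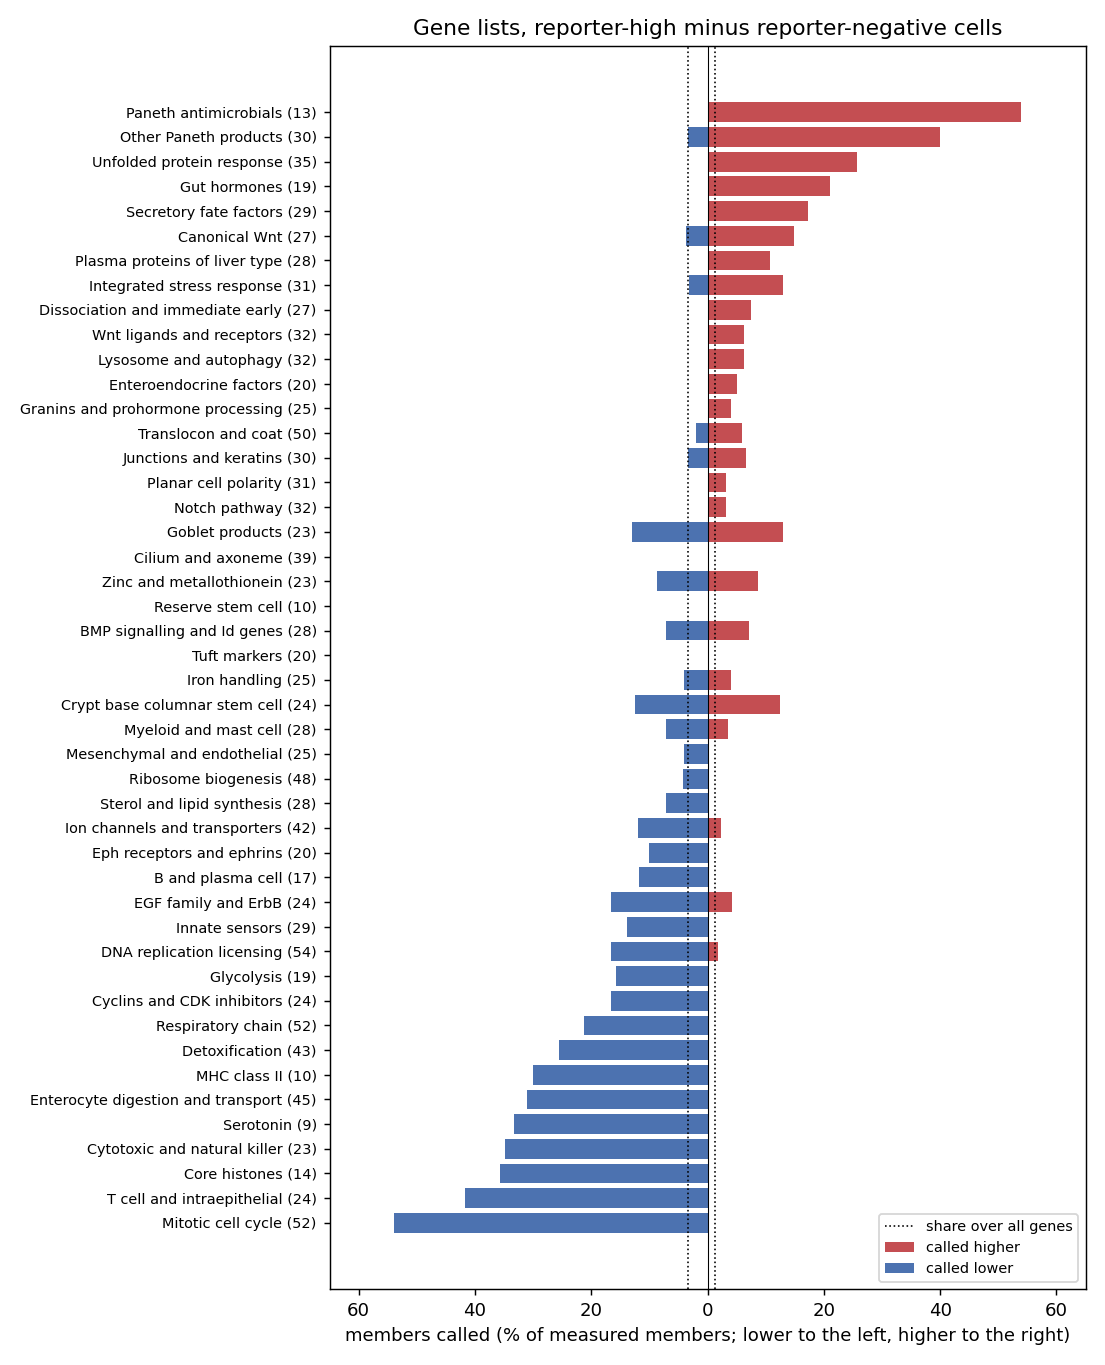
Share of the measured members of 46 gene lists called higher (red, to the right) or lower (blue, to the left) in reporter-high than in reporter-negative cells, in percent, with the number measured in brackets; dotted lines are the shares over all genes, 1.36% and 3.35%. The Paneth lists reach farthest to the right and the mitotic, T cell and core histone lists farthest to the left.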

How the data were processed

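RNA of sorted crypt cells was extracted with the miRNeasy Mini kit, amplified and labelled (Ovation Pico WTA V2, Encore Biotin) and hybridised to Affymetrix arrays, per the labels' protocols. The deposited values are log2 signals that the authors made by RMA in Expression Console 1.3.0.187, per the submitters' processing notes. Of 18 columns 12 held no values in the file used here and were not analysed here. From the 6 filled arrays, 21789 of 35556 probe sets with exactly 1 symbol were kept, and each of 19938 genes took its brightest probe set by mean. Values were used as deposited, from 1.90 to 13.98. Background was the 95th percentile of 1207 olfactory, vomeronasal and trace amine receptor genes. The number of arrays limits the precision.

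limma 3.58.1 (R 4.3.3) fitted the 3 gates together, with Benjamini-Hochberg adjustment over all genes and a threshold of 0.05, and was checked on simulated data. Its moderated tests had 3 residual degrees of freedom and 3.83 prior degrees of freedom estimated over all genes. Alternatives are in the closing section. Genes named were drawn from the 12 largest called changes in each direction that stood above background in the brighter gate, landmark genes, and per list up to 6 called and up to 3 bright uncalled members (all members of lists with up to 12). Not every gene that met this rule is printed. The largest replicate differences were named as well. Members and lists were chosen with earlier results of these data known. Genes named outside the rule, such as Acvr1c, Nucb2, Reg4, Xdh, Xbp1, Spdef, Gfi1, Vangl2, Axin2, Edem1, Edem3, Hspa5 and Cdc20, and the stomach and pancreas lists, were chosen after values were seen. Promoters came from RefSeq's table for GRCm38.p6.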

Additional observations from a re-analysis of the deposited data

How the results depend on the processing

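Of 939 calls at the stated settings (272 rises, 667 falls), a fit of the 4 arrays alone called 561 (377 falls), quantile normalization 621 (297 falls), array weights 620 (417 falls), and an adjusted p under 0.01 left 61 (38 rises, 23 falls). Leaving out 1 array at a time gave 13 to 1919 calls, with 12 to 601 rises and 1 to 1318 falls. The trend and robust prior (799), a filter on dim genes (1059), the mean of probe sets (996), centring each array on its median (1118, with 251 rises and 867 falls) and a minimum log2 difference of 1 stayed within 1.5 times the count. Of the 939, quantile normalization kept 538 in the same direction, array weights 616 and median-centring 918, and the mean of probe sets gave 1 the opposite sign. Of 164 named genes that were called, 13 still passed without negative replicate 1, 11 without negative replicate 2, 123 without either low array, 150 without high replicate 1 and 112 without high replicate 2. None of the 150 named genes not called passed without a negative array, and 24 did without high replicate 1. The median over all genes was 0.10 as deposited, 0.02 after quantile normalization and 0.01 after median-centring. With the replicate number as a block, 1065 genes were called (289 rises, 776 falls) and 854 of the 939 calls held. In that fit 26 enterocyte and 17 detoxification genes fell, against 14 and 11, and Alpi was called (adjusted p = 0.0245). Same-numbered arrays shared deviations only weakly (correlations 0.10, 0.08 and 0.10 across genes for the 3 pairs of gates). This cannot decide whether they share animals, and the labels do not say, so the main fit did not pair the samples. Alpi in all 3 gates, and Eif2s3y in the negative and high gates, read higher on replicate 1. So did the median level of 4 measured sex-linked genes in all 3 gates. It was 5.31 and 3.96 on the negative, 6.09 and 3.83 on the low and 5.45 and 4.27 on the high arrays. In the main fit such differences between replicates count as spread within gates. The cause of the differences between fits was not tested. Array signal limits what can be said of genes near background, where only bounds are given.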
